A study of Mus musculus with 6 samples.

Results

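The genes of major histocompatibility complex (MHC) class II antigen presentation were examined in 6 breast tumors of Balb/c mice by RNA sequencing. The 9 genes were H2-Aa, H2-Ab1, H2-Eb1, Cd74, Ciita, H2-DMa, H2-DMb1, H2-Oa and Ctss. They were chosen by name from the known pathway, with earlier results of these data known. All 9 were among the 18460 genes listed in at least 1 tumor, 8 of them were listed in all 6 tumors, and the same 8 were among the 13706 genes that passed the filter on low counts and entered the test. H2-Oa did not pass that filter and is given by its counts.

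The 3 control tumors came from PyMTtg;Rag1KO mice and the 3 test tumors from K14-TSLPtg;PyMTtg;Rag1KO mice. The mice of both groups carried the polyomavirus middle T oncogene under the MMTV promoter, which drives spontaneous mammary tumors, and lacked Rag1, so that they made no T or B cells of their own. Both groups received CD4+ T cells sorted from donor spleens at 4 weeks of age, and tumors were taken between weeks 18 and 20. The test mice differed by a transgene that expresses thymic stromal lymphopoietin (TSLP) from the keratin 14 promoter, which is active in the basal keratinocytes of skin. The comparison therefore asks whether TSLP-stimulated CD4+ T cells go with another level of the machinery that shows antigen to such cells.

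Class II molecules are heterodimers of an alpha and a beta chain that present peptides to CD4+ T cells. Dendritic cells, macrophages and B cells make them constitutively or on activation, and epithelial cells can make them under interferon gamma. The invariant chain CD74 fills the groove of a new dimer until the protease cathepsin S trims it to the fragment CLIP, H2-DM exchanges CLIP for peptide, and H2-DO restrains H2-DM. CIITA, which binds no DNA itself, is recruited to class II promoters by factors that sit on the conserved X and Y boxes.

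Total expected counts were between 8373390 and 9449565 per tumor. An expected count is an estimate of the reads of a gene in which a read that matches several genes is shared among them. Tslp had 2 to 12 counts in the test tumors and 2 or 3 in the control tumors, so the transgene could not be read from the tumors themselves. Rag1 was listed with 4 to 27 counts in both groups, and which part of the gene the knockout removes is not given in the sources used here. The epithelial markers Epcam and Krt8 were at 141 FPKM or more in every tumor. FPKM is the number of fragments of a gene scaled to transcript length and library size. Of the T cell genes, Cd3e had 1 to 7 counts, Cd3d 8.21 to 20.6, Lck 11 to 34 and Cd4 9 to 35. The B cell genes Ms4a1 and Pax5 were not listed, while Cd22, also on the B cell list, had 55.9 to 182 counts. In whole tumors, fewer cells of a type and less RNA per cell cannot be told apart.

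H2-Oa, H2-DMa, H2-DMb1, H2-Ab1, H2-Aa and H2-Eb1 lie in this order on chromosome 17 of GRCm38, from position 34092379 to 34316674. RefSeq promoter windows of that build were at hand for 6 of the 9 members. The letters GNAAC of an X box followed after 20 to 30 bases by the Y box GATTGG, on either strand, were searched in the 250 bases before the start. They were found in 4 of them, H2-Aa, H2-Eb1, H2-DMb1 and H2-Oa. Of the neighbouring class II genes, H2-Ob, the partner chain of H2-Oa, and H2-Eb2 also had them, and H2-DMb2 did not. The same arrangement was present in 181 of 32851 promoter windows of the table, or 0.551%, and the Y box alone in 14.6%. The letters were chosen with class II promoters in view, so the match is a description. The sequences of the 4 members with the pair and of H2-Ob are shown, with the X and Y letters in capitals and 15 bases on each side.
H2-Aa, chr17:34287852-34287919, minus strand: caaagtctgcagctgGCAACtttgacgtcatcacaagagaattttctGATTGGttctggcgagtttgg
H2-Eb1, chr17:34305761-34305827, plus strand: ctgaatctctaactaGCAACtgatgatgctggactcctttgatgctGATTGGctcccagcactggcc
H2-DMb1, chr17:34153082-34153149, plus strand: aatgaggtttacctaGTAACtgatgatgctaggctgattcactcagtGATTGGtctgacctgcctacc
H2-Oa, chr17:34092288-34092355, plus strand: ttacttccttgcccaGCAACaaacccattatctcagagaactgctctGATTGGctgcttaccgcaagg
H2-Ob, chr17:34238803-34238867, plus strand: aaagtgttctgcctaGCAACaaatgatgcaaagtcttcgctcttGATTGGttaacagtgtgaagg
The first base of the X letters lay 81 bases before the start of H2-Aa, 91 before H2-Eb1, 94 before H2-DMb1, 76 before H2-Oa and 87 before H2-Ob. The letters were not found in the windows of H2-DMa and Ctss. The tumors came from Balb/c mice and these sequences from the C57BL/6 reference.

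Per length of transcript, the members stood in a fixed order of levels with few exceptions. Cd74 was the most abundant member in every tumor, at 122 to 463 FPKM, and ranked between 181 and 513 among all genes of a tumor. H2-Ab1 (48.8 to 181 FPKM), H2-Aa (38.0 to 154 FPKM) and Ctss (58.7 to 115 FPKM) came next, and their ranges overlapped so that no order among the 3 held in all tumors. H2-Eb1 was below these 3 in each tumor, at 16.2 to 75.6 FPKM. H2-DMa and H2-DMb1 lay a step lower, at 5.13 to 10.4 and 4.58 to 11.7 FPKM, and did not differ from each other beyond their spread. Ciita had 0.67 to 1.19 FPKM and H2-Oa 0 to 0.95 FPKM, and in each tumor H2-Oa was the lowest member.

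**Figure D1:**
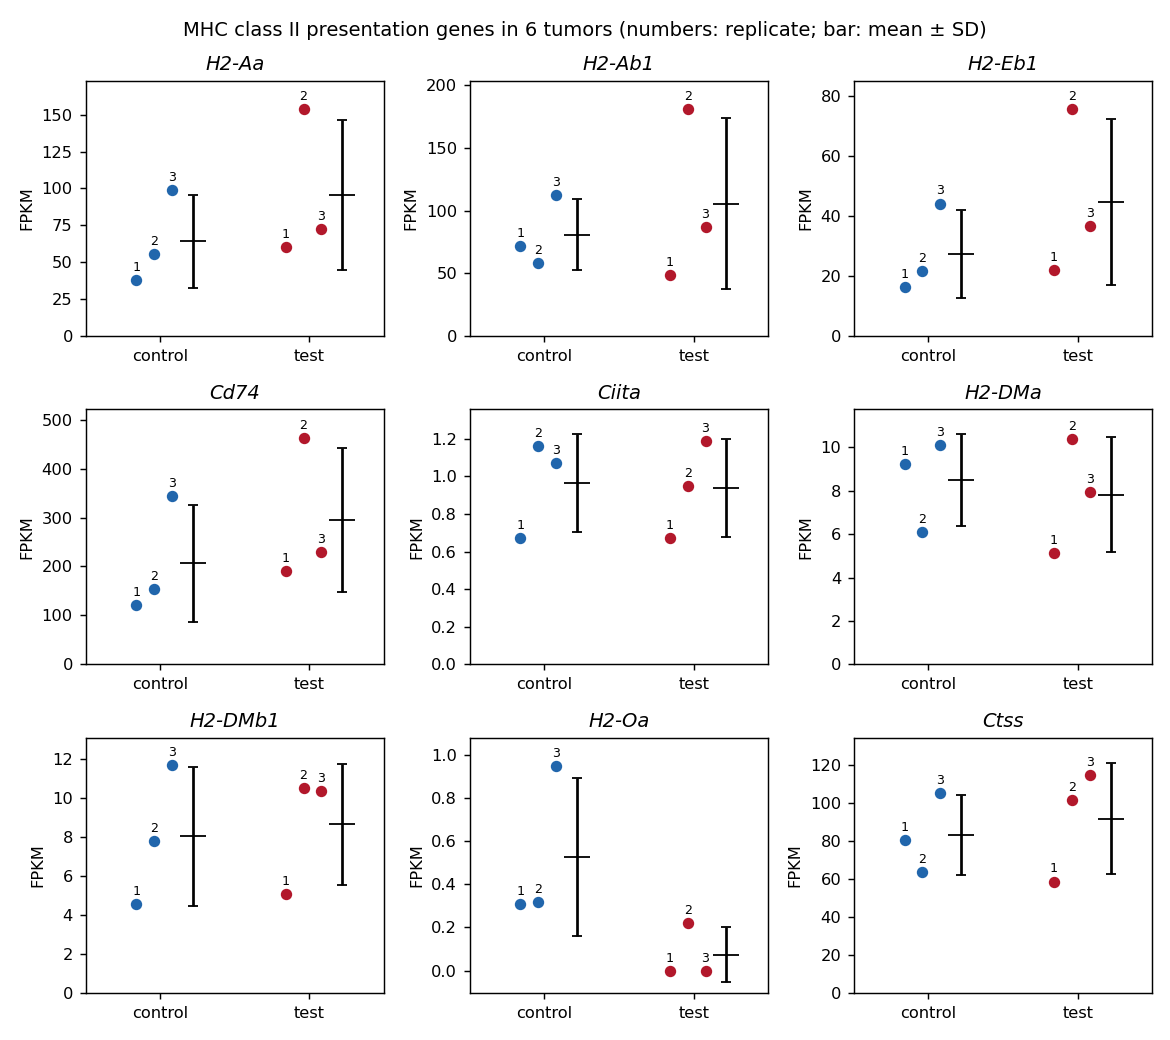
FPKM (y axis, linear, 1 panel per gene) of the 9 members in the 3 control tumors (blue) and 3 test tumors (red), with the replicate number at each point and the mean ± SD of the group as a bar. Test replicate 2 is the highest tumor for H2-Aa, H2-Ab1, H2-Eb1 and Cd74 and control replicate 3 the next, while H2-Oa is the member whose groups do not overlap.

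No difference between test and control tumors passed the test for any of the 8 tested members. With edgeR's quasi-likelihood test and Benjamini-Hochberg adjustment over all tested genes, 0 of 8 members had an adjusted p of 0.05 or less, beside 0 of 13706 genes, or 0%. At an unadjusted p under 0.05, 0 of 8 members passed, beside 1153 genes, or 8.41%, of all tested genes. The fitted log2 fold change, test over control, was above 0 for 6 members and below 0 for 2, with a median of 0.29 beside 0.02 for all tested genes. The tumors of the groups overlapped for all 8, while they did not overlap for 12% of tested genes. The biological coefficient of variation between tumors of a group was 0.434, and the 95% intervals of the members' fold changes are given with each gene because a p above the threshold does not show equal levels.

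H2-Aa encodes the alpha chain of the I-A molecule. Its level was 60.3, 154 and 72.3 FPKM in test replicates 1, 2 and 3 and 38.0, 55.4 and 99.3 FPKM in control replicates 1, 2 and 3. Test replicate 2 was the highest and control replicate 3 the next, above the other test tumors, so the groups overlapped. The fold change was 0.62 ± 0.48 (SE, n = 3 against 3) on the log2 scale, with an adjusted p of 0.76 in edgeR's quasi-likelihood test, and its 95% interval ran from 0.713-fold to 3.32-fold.

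H2-Ab1 encodes the beta chain that pairs with H2-Aa. It stood at 48.8, 181 and 87.1 FPKM in the test tumors and at 72.0, 57.8 and 113 FPKM in the control tumors, in the order of replicates. Test replicate 1 was the lowest and test replicate 2 the highest of all 6, so the control tumors lay inside the range of the test tumors. The log2 fold change was 0.43 ± 0.51 (SE), with an adjusted p of 0.836 (edgeR) and an interval from 0.591-fold to 3.06-fold.

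H2-Eb1 is the beta chain of the I-E molecule. The test tumors had 21.98, 75.6 and 36.8 FPKM and the control tumors 16.2, 21.7 and 44.2 FPKM. The order of tumors was that of H2-Aa, with test replicate 2 first, control replicate 3 second and control replicate 1 last, and the groups overlapped. H2-Eb1 had the largest fold change of the 8 tested members, 0.76 ± 0.54 on the log2 scale (SE), with an adjusted p of 0.739 (edgeR) and an interval from 0.709-fold to 4.06-fold.

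H2-Ea, the alpha chain that pairs with H2-Eb1, is expressed in Balb/c mice but not in C57BL/6 mice, the strain of the reference genome. It was listed at 43.3, 80.4 and 45.2 FPKM in the test tumors and 26.4, 30.8 and 59.2 FPKM in the control tumors. Again test replicate 2 and control replicate 3 were highest and the groups overlapped, with a log2 fold change of 0.57 ± 0.41 (SE) and an adjusted p of 0.737 (edgeR). The class II genes differ in sequence between mouse strains, and how many Balb/c reads failed to match the reference could not be measured.

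Expected counts of H2-Ab1 and H2-Eb1 were fractional in all 6 tumors, and their sum was a whole number in each within 0.015, so the deposited counting had divided reads between these beta chains. The sums were 787, 2920 and 1547 counts in the test tumors and 1032, 928 and 1872 in the control tumors, and the groups overlapped as for each gene alone. Fitted as 1 gene, the beta chains had a log2 fold change of 0.54 with an adjusted p of 0.797 (edgeR). Over all alternatives that use the spread between tumors, this fit among them, the adjusted p of H2-Ab1 was at least 0.617.

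Cd74 encodes the invariant chain. The test tumors had 191, 463 and 229 FPKM and the control tumors 122, 154 and 343 FPKM. Control replicate 3 lay above test replicates 1 and 3, and control replicates 1 and 2 were the lowest tumors. The log2 fold change was 0.55 ± 0.50 (SE), with an adjusted p of 0.787 (edgeR) and an interval from 0.654-fold to 3.29-fold.

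For H2-Aa, H2-Eb1 and Cd74 the size of the fold change rested on 1 tumor of each group. Without test replicate 2 the log2 fold changes were 0.05, 0.11 and 0.03, and without control replicate 3 they were 1.05, 1.26 and 1.10, with no adjusted p at 0.05 or less in either case. For H2-Ab1 the sign changed, to -0.25, without test replicate 2.

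H2-DMa and H2-DMb1 form the H2-DM heterodimer, which catalyses peptide exchange. H2-DMa had 5.13, 10.4 and 7.94 FPKM in the test tumors and 9.24, 6.11 and 10.1 FPKM in the control tumors, with test replicate 1 lowest and test replicate 2 highest. Its log2 fold change was -0.10 ± 0.40 (SE), with an adjusted p of 0.959 (edgeR) and an interval from 0.491-fold to 1.77-fold. The levels of H2-DMb1 were 5.08, 10.5 and 10.4 FPKM in the test tumors and 4.58, 7.80 and 11.7 FPKM in the control tumors. Control replicate 1 was lowest and control replicate 3 highest for H2-DMb1, so that the test tumors lay between them, and its log2 fold change was 0.15 ± 0.46 (SE) with an adjusted p of 0.946 (edgeR). H2-DMb1 shared reads with its near-identical neighbour H2-DMb2 in all 6 tumors, and the sums of both were 76, 187 and 172 counts in the test tumors and 85, 105 and 212 in the control tumors. With the sum in place of H2-DMb1 the log2 fold change was 0.19, and the groups overlapped.

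H2-Oa and H2-Ob form H2-DO, the inhibitor of H2-DM that is best known from B cells. H2-Oa had 0, 2 and 0 counts in the test tumors and 3, 3 and 9 counts in the control tumors. Every control tumor was above every test tumor, with an exact permutation p of 0.1 (two-sided), the lowest that 3 against 3 tumors allow. Of the 4754 genes that were listed but not tested, 2.94% were likewise lower in every test tumor than in every control tumor. The summed counts of 2 and 15 gave a test to control ratio of 0.138, with an exact 95% interval from 0.0153 to 0.595 that covers counting error only. H2-Ob had 1, 0 and 1 counts in the test tumors and 4, 4 and 2 in the control tumors, again without overlap, and its ratio of 0.207 had an interval from 0.0221 to 0.974. All but 1 of the control values and all test values of both genes were at or near a floor of 3 counts, below which a level cannot be told from 0 in 1 tumor. H2-Eb2, another class II gene with few counts, leaned the other way. It had 0, 4 and 5 counts in the test tumors and 0, 1 and 1 in the control tumors, and its groups overlapped. The 5 of 8 B cell markers that were listed summed to 1.76 to 6.87 FPKM in the test tumors and 2.21 to 3.89 FPKM in the control tumors. Test replicate 2 had the highest sum and control replicate 3 the next. Cd22 alone was at 5.27 and 2.83 FPKM in these 2 tumors, most of the sum there. The part of B cells in the H2-Oa and H2-Ob counts was not tested.

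Ctss encodes cathepsin S, the protease that trims the invariant chain. Its level was 58.7, 102 and 115 FPKM in the test tumors and 80.5, 63.7 and 105 FPKM in the control tumors. Test replicate 1 was the lowest and test replicate 3 the highest, with the control tumors between them. The log2 fold change was 0.16 ± 0.34 (SE), with an adjusted p of 0.91 (edgeR) and an interval from 0.644-fold to 1.94-fold, the narrowest of the 8.

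Ciita, the transactivator, was the lowest of the 8 tested members. It had 0.67, 0.95 and 1.19 FPKM in the test tumors and 0.67, 1.16 and 1.07 FPKM in the control tumors, from 29 to 58 counts per tumor. Replicate 1 of each group was lowest, and the groups covered almost the same range. The log2 fold change was -0.03 ± 0.44 (SE), with an adjusted p of 0.987 (edgeR) and an interval from 0.483-fold to 1.97-fold.

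**Figure D2:**
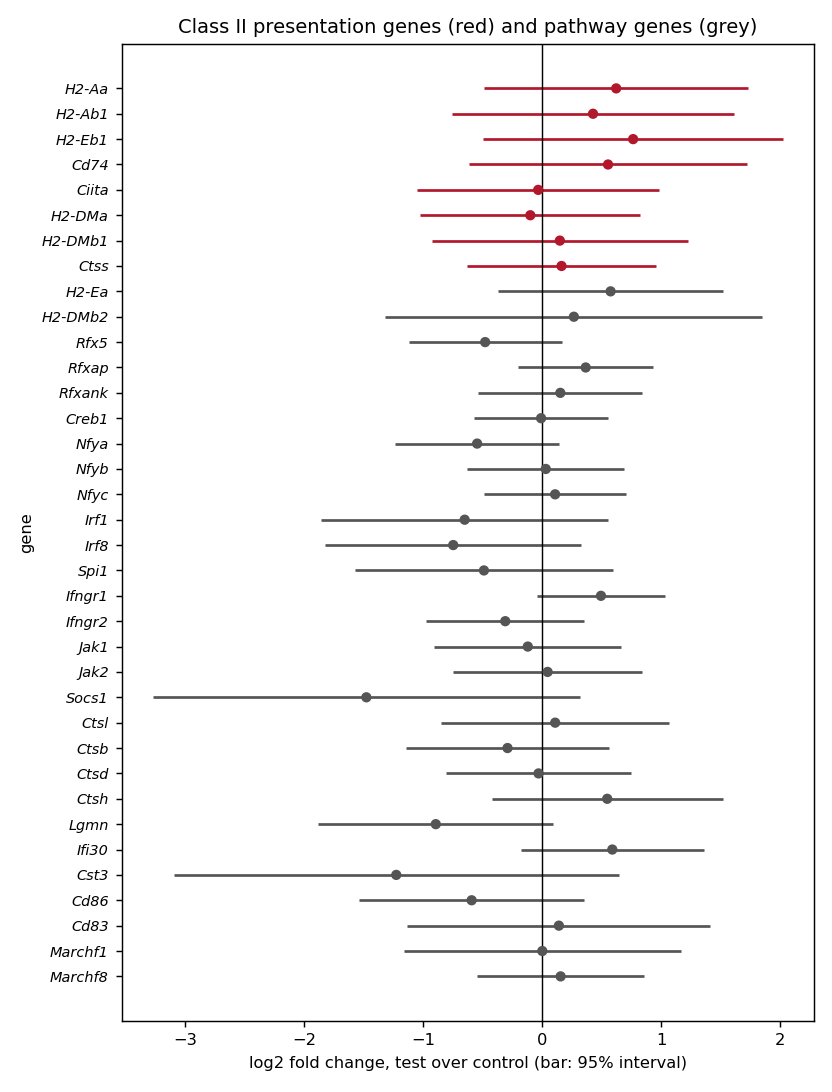
Log2 fold change, test over control (x axis), of the 8 tested members (red) and of tested pathway genes (grey, y axis), as the edgeR estimate (point) with its 95% interval (bar). All intervals shown include 0, from H2-Eb1 at 0.76 to H2-DMa at -0.10 among the members.

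Across the 6 tumors H2-Aa and Cd74 had the most similar course of all pairs among the members and H2-Ea. As a measure of likeness, log2(CPM + 0.5), where CPM is counts scaled to library size, was centred on each gene's mean, and the root mean square difference between the profiles of a pair of genes was taken over the 6 tumors. It was 0.096 between H2-Aa and Cd74, 0.152 between Cd74 and H2-Ea, 0.163 between H2-Aa and H2-Ea, 0.167 between H2-Aa and H2-Eb1, 0.173 between H2-Eb1 and Cd74 and 0.283 between H2-Eb1 and H2-Ea. H2-DMa was closest to Ctss, at 0.22, and Ciita to H2-DMb1, at 0.278. These values describe 6 points that share libraries and their scaling.

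Among the members the SD of log2(CPM + 0.5) over the 6 tumors was 0.823 for H2-Eb1, 0.721 for Cd74, 0.718 for H2-Ab1 and 0.702 for H2-Aa. These spreads were larger than those of 75.5% to 82.6% of tested genes. Ciita varied least of the tested members, with an SD of 0.326, larger than in 27.5% of tested genes. H2-DMa, Ctss and H2-DMb1 lay between, at 0.440, 0.431 and 0.537.

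**Figure D3:**
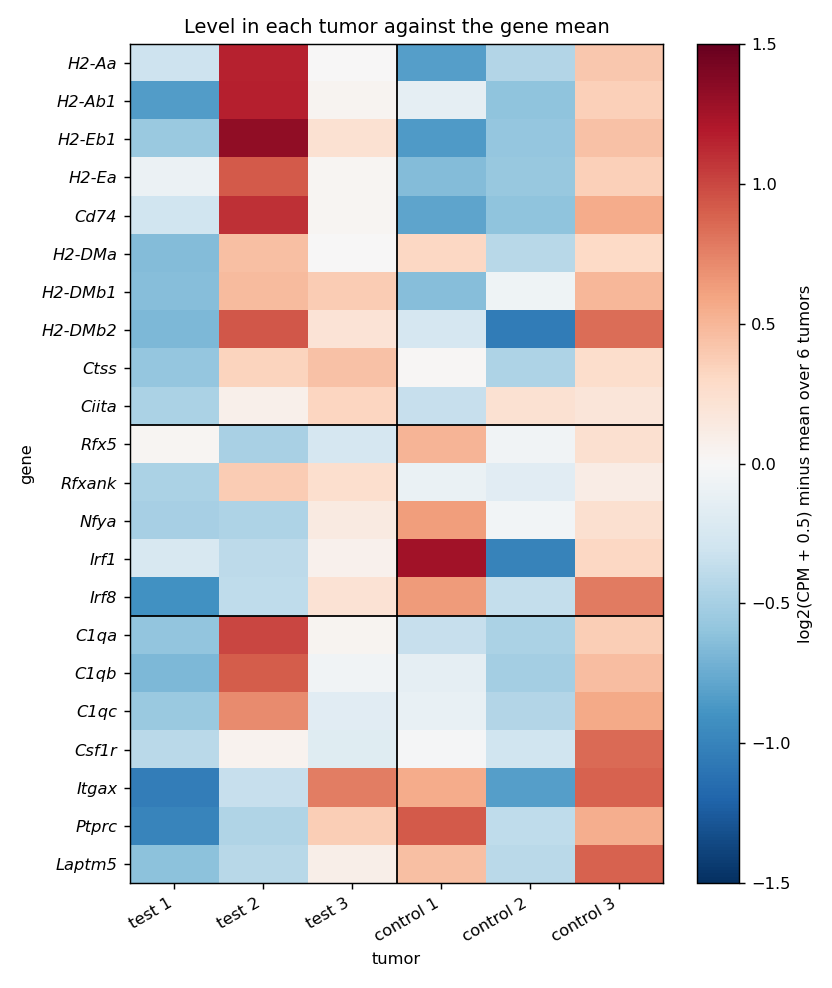
Colour gives log2(CPM + 0.5) minus the gene's mean over 6 tumors, from blue (lower) to red (higher), for 22 genes (rows) in 3 test and 3 control tumors (columns). The upper block holds members and their neighbours, the middle block transcription factors and the lower block macrophage, dendritic cell and general leukocyte genes. The red of test replicate 2 runs through H2-Aa, H2-Ab1, H2-Eb1, H2-Ea, Cd74, Rfxank, C1qa, C1qb and C1qc. It is missing from Rfx5, Nfya, Irf1, Irf8, Itgax, Ptprc and Laptm5. The middle and lower blocks show only part of their lists, picked after the values were seen. Of the leukocyte markers not drawn, Cd53, Coro1a and Cd52 were highest in test replicate 2, and Cd48, Arhgdib and Cytip were not.

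Ratios between members within a tumor do not depend on the total of the library. Cd74 stood at 3.17, 3.01 and 3.17 times the FPKM of H2-Aa in the test tumors and 3.20, 2.78 and 3.46 times in the control tumors. The highest of the 6 ratios was 1.24 times the lowest, while the FPKM of Cd74 itself varied by 3.80 times. H2-Eb1 was at 0.364 to 0.509 and H2-Ea at 0.522 to 0.717 of H2-Aa.

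Control replicate 1 stood apart in the ratios that involve H2-Ab1 and H2-DMa. H2-Ab1 was at 1.89 times H2-Aa there and at 0.808 to 1.20 times in the other 5 tumors. Its ratio to H2-Eb1, with which it shares reads, was 4.44 there, 2.67 and 2.55 in control replicates 2 and 3 and 2.22, 2.39 and 2.37 in the test tumors. This ratio, added after its values were seen and not tested, was lower in every test tumor than in every control tumor. H2-DMa was at 0.243 of H2-Aa in that tumor and at 0.0676 to 0.110 in the others, and H2-DMb1 was at 0.496 of H2-DMa against 0.99 to 1.30. The 7 ratios that could be compared between groups gave exact two-sided permutation p-values from 0.2 to 0.8, all 0.8 after Benjamini-Hochberg adjustment. The largest difference was that of H2-DMa to H2-Aa, with means of 0.0875 ± 0.0213 in test and 0.152 ± 0.0791 in control tumors (SD, n = 3 each; exact permutation p = 0.2). Without control replicate 1 its log2 difference, test minus control, went from -0.71 to -0.31, and that of Ciita to Cd74 was then larger, at -0.54.

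**Figure D4:**
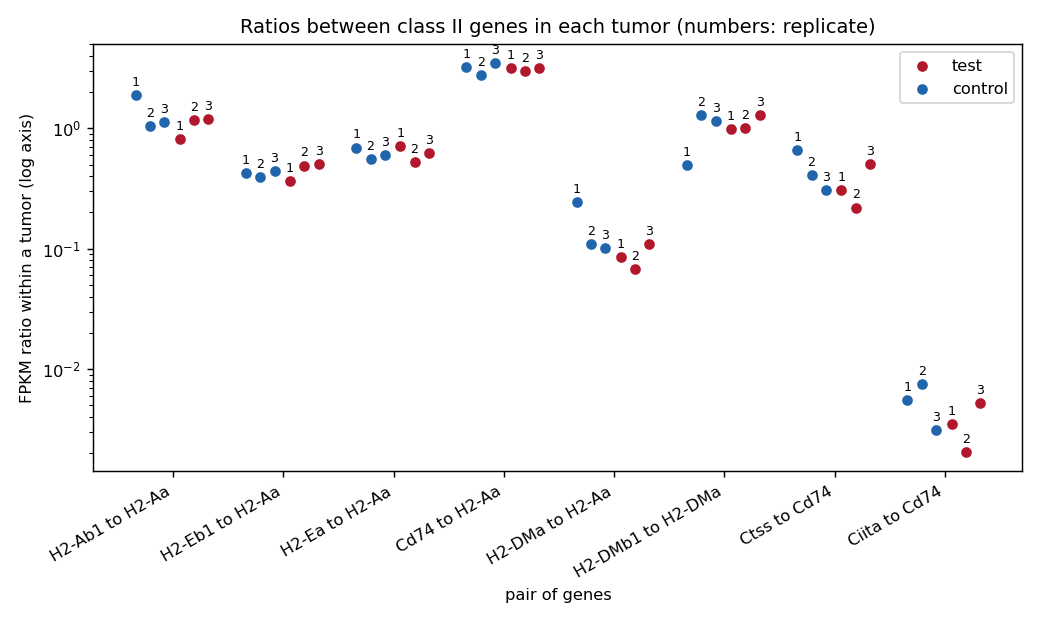
FPKM ratio within a tumor (y axis, log scale) for 8 pairs of class II genes (x axis) in control (blue) and test (red) tumors, with replicate numbers. Cd74 to H2-Aa stays between 2.78 and 3.46 in all 6 tumors, and control replicate 1 lies apart from the others for H2-Ab1 to H2-Aa, H2-DMa to H2-Aa and H2-DMb1 to H2-DMa.

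The wider pathway was read from 35 genes, of which 29 were tested. At an adjusted p of 0.05 in edgeR's quasi-likelihood test 0 of 29 passed, and at an unadjusted p under 0.05 also 0 of 29, with 15 fitted above 0 and 14 below. Of the 10 tested transcription factors of class II promoters and their regulators, 4 were fitted above 0 and 6 below, with a median log2 fold change of -0.25. The RFX complex, which binds the X box, consists of Rfx5, Rfxap and Rfxank. Rfxap was at 11.03, 9.55 and 11.9 FPKM in the test tumors and 8.26, 8.20 and 8.91 in the control tumors, without overlap, while its log2 fold change of 0.37 ± 0.24 (SE) had an adjusted p of 0.723 (edgeR). Rfx5 and Rfxank overlapped between the groups, with log2 fold changes of -0.48 ± 0.28 and 0.15 ± 0.30 (SE). Irf4, a factor of dendritic and lymphoid cells, had 466 counts in test replicate 1 and 0 to 11 in the other 5 tumors, and was not tested.

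Interferon gamma, the main inducer of Ciita outside professional presenting cells, was almost without reads. Ifng had 1 count over all 6 tumors, in control replicate 1, and the summed count of 0 in the test tumors allows up to 3.69 counts (exact 95% limit, counting error only). Of 6 tested genes of its receptor and signalling, 3 were fitted above 0 and 3 below. Ifngr1, a receptor chain, was at 41.8, 29.5 and 29.5 FPKM in the test tumors and 22.3, 24.8 and 24.7 in the control tumors. These groups did not overlap, and the log2 fold change of 0.49 ± 0.23 (SE) had an unadjusted p of 0.0679 and an adjusted p of 0.64 (edgeR).

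The 7 endosomal proteases and processing genes had 3 members fitted above 0 and 4 below. Lgmn, an endosomal protease, was at 54.3 to 79.4 FPKM in the test tumors and 63.1 to 170 FPKM in the control tumors, with an unadjusted p of 0.0701. Cst3, an inhibitor of cysteine proteases, ranged from 126 to 529 FPKM in the test tumors and from 150 to 1038 FPKM in the control tumors. Of the costimulatory and surface genes 4 of 6 were tested, and Cd86, a costimulatory ligand for CD28, was the tested pathway gene lower in every test tumor, at 1.31, 1.28 and 1.66 against 1.91, 1.85 and 2.72 FPKM. Its log2 fold change of -0.59 ± 0.41 (SE) had an adjusted p of 0.732 (edgeR), so that 3 of 29 tested pathway genes had groups without overlap, near the 12% of all tested genes.

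Of the macrophage markers, the 3 complement genes C1qa, C1qb and C1qc had profiles closest to the mean profile of the members, with root mean square differences of 0.128, 0.179 and 0.205. The other macrophage markers were farther from it, from Csf1r at 0.414 to Mertk at 1.43, and overlapped with the leukocyte markers, which ran from Cd53 at 0.378 to Cytip at 0.900. C1qa, singled out after its values were seen, was at 79.1, 221 and 118 FPKM in the test tumors and 84.5, 86.1 and 154 in the control tumors, and test replicate 2 and control replicate 3 were its highest tumors. Cd74 was at 1.44 to 2.42 times C1qa in all 6 tumors. Against Ptprc, which encodes the pan-leukocyte antigen CD45 and was likewise picked after its values were seen, Cd74 varied from 15.6 to 151 times. Of the 10 macrophage markers, 3 were fitted above 0 and 7 below, with a median log2 fold change of -0.46. Together they summed to 408, 951 and 480 FPKM in the test tumors and to 536, 531 and 1017 FPKM in the control tumors. Most of this sum came from C1qa, C1qb, C1qc and Lyz2, at 221, 210, 163 and 286 FPKM in test replicate 2. The sum is therefore not independent of the C1q genes. Lyz2 was its largest single part in test replicate 2 and in control replicate 3, where it was at 405 FPKM. Test replicate 2 and control replicate 3 were the highest tumors for the C1q genes, Lyz2, Csf1r and Mrc1. Cd68 was highest in control replicate 1 and Mertk in test replicate 1. Adgre1 and Fcgr1 were highest in control replicate 3 and next in control replicate 1. The 8 leukocyte markers summed to 84.3 to 163 FPKM in the test tumors and 115 to 239 FPKM in the control tumors. Among them Cd53, Coro1a and Cd52 were highest in test replicate 2 and Cytip in test replicate 3. Laptm5, Cd48 and Arhgdib were highest in control replicate 3 and Ptprc in control replicate 1. The 10 dendritic cell markers summed to 9.39 to 15.5 and 6.21 to 16.2 FPKM, with test replicate 2 at 10.8 FPKM. Itgax alone was at 12.09 FPKM in test replicate 3 and 13.55 FPKM in control replicate 3, most of the sum there. Cd209a, Batf3, Siglech and Ccr7 were highest in test replicate 2, at 1.65, 1.01, 0.78 and 0.41 FPKM. Zbtb46, Clec9a and Clec10a were highest in test replicate 1, Flt3 in test replicate 3, and Itgax and Xcr1 in control replicate 3. Of the 10, only 3 passed the filter on low counts. T cell markers summed to 3.69, 5.35 and 3.95 FPKM in the test tumors and 3.56, 3.44 and 4.05 FPKM in the control tumors. Test replicate 2 was thus highest and control replicate 3 next. Of the 9 T cell markers 3 passed the filter on low counts. Cd3d and Lck were highest in test replicate 2 and Cd4 in control replicate 3. The part of each cell type in the class II levels was not tested.

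The 6 epithelial markers summed to 2532 to 3045 FPKM in the test tumors and 992 to 2347 FPKM in the control tumors, which did not overlap. Test replicate 2 had the lowest epithelial sum of its group. Control replicates 1 and 3 had epithelial sums of 998 and 992 FPKM and Cd74 at 122 and 343 FPKM. The part of epithelial cells in the class II levels was not tested. Test replicate 1, the lowest test tumor for each of the 8 tested members, had the highest sums of muscle (427 FPKM) and adipocyte (65.0 FPKM) markers. Of the 5 lymph node stroma markers, Cxcl13 made up 45.5 of the summed 45.9 FPKM in it, while Cr2, Ccl21a and Ccl19 were at 0 there, and the sum was 1.23 to 28.9 FPKM elsewhere. The part of such tissue in its class II levels was not tested.

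Outside the lists, the tested genes whose profile over the 6 tumors was closest to the mean profile of the members were Bmp1, Ly86, Shkbp1, Bax, G530011O06Rik, Septin4, Ncf1, 1700086O06Rik, Comtd1 and Foxp3. Their root mean square differences from that profile ran from 0.081 to 0.22, over 6 tumors and 4556 genes with enough reads and spread to be ranked. Bmp1, a procollagen proteinase, was at 10.6, 23.1 and 14.9 FPKM in the test tumors and 10.9, 12.96 and 20.2 FPKM in the control tumors. Ly86, which encodes the MD-1 protein of B cells and macrophages, was at 7.93, 26.2 and 15.5 and at 9.51, 10.3 and 18.8 FPKM. Ncf1, a subunit of the phagocyte oxidase, had its highest level in control replicate 3, at 9.18 FPKM, and its next in test replicate 2, at 7.06 FPKM. Foxp3, the factor of regulatory T cells, was at 0.96 to 2.84 FPKM in test and 1.13 to 2.43 FPKM in control tumors. None of the 10 passed an adjusted p of 0.05 in edgeR's quasi-likelihood test (adjusted p from 0.749 to 0.981), and C1qa at 0.128 stood between the first and the second of them.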

How the data were processed

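Total RNA of 6 tumors, each from a separate mouse, was sequenced on an Illumina HiSeq, and the authors aligned reads to mm10, which is GRCm38, with Bowtie. The submitters' processing notes also name BWA and RSEM. The authors deposited an expected count, not normalized, and an FPKM, normalized for length and depth, with transcript lengths, by NCBI Gene identifier. Of 18460 identifiers, 18400 matched a symbol. Genes not listed in a tumor were set to 0.

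Counts were rounded and fitted with edgeR 4.0.16 under R 4.3.3 (filterByExpr, TMM, quasi-likelihood test, no covariate, Benjamini-Hochberg adjustment, threshold 0.05). The SE is the fold change divided by the square root of F, and 95% intervals use the fit's degrees of freedom. CPM use TMM library sizes. Exact permutation tests used all 20 splits of the tumors. Likeness was ranked for tested genes with a mean CPM of at least 5 and an SD of log2 level of at least 0.5. The fit was tested on simulated counts.

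Members and lists were chosen with earlier results of these data known. All members, pathway genes with an unadjusted p under 0.05 or pairing with a member, and the 10 genes of most similar profile were to be named. H2-Ea to H2-Aa, H2-Ab1 to H2-Eb1, and the ratios of Cd74 to C1qa and Ptprc, as well as the pathway and marker genes named beyond this, were chosen after their values were seen. Alternatives used DESeq2 1.42.0, limma 3.58.1 on log2(FPKM + 1) or log2(FPKM + 0.1), RLE, other filters, a replicate block, a pooled Poisson test and each tumor left out. Summing genes that share reads was added after seeing the data. Values of some listed genes are not reported here.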

Additional observations from a re-analysis of the deposited data

How the results depend on the processing

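The number of members called stayed at 0 under every alternative except the pooled Poisson test, which ignores the spread between tumors and called 5 of 8 members (H2-Aa, H2-Ab1, H2-Eb1, Cd74 and Ctss), 23 pathway genes and 9578 genes in all. Over all genes DESeq2 called 344, limma on log2(FPKM + 1) called 1, and leaving out a tumor called from 0 to 182, the latter without control replicate 2. With the replicate number as a block, 0 genes were called and the median log2 fold change of the members was 0.18, against 0.29 without it; the numbers did not pair the tumors, since deviations of same-numbered tumors correlated at -0.025, 0.121 and -0.137, and test replicates 1 and 3 correlated best with another number. This median ran from -0.009 (without test replicate 2) to 0.61 (without test replicate 1) when a tumor was left out. So left out, the log2 fold changes ranged from -0.226 to 0.176 for Ciita, from -0.392 to 0.148 for H2-DMa, from -0.253 to 0.785 for H2-Ab1, from -0.106 to 0.493 for H2-DMb1 and from -0.015 to 0.42 for Ctss, so the sign of these 5 depends on the tumors included. The log2 difference in ratio, test minus control, ranged from -0.094 to 0.063 for Cd74 to H2-Aa, from -0.152 to 0.531 for H2-DMb1 to H2-DMa and from -0.932 to -0.306 for H2-DMa to H2-Aa. Members whose groups did not overlap numbered 1 to 4 and such ratios, of the 7 tested, 0 to 2, with the most members apart without control replicate 3. Groups of fewer tumors separate more easily. The share of all genes apart with a tumor left out is not given here, so these counts cannot be read as a result about the members. The cause of these changes was not tested beyond the samples left out. Depth limits H2-Oa and H2-Ob, with 0 to 9 counts per tumor.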
